A study of Mus musculus with 6 samples.

Results

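Chromosome 10 of the mouse carries 5 protein-coding genes that were grouped here as NKG2D ligand genes: Raet1d, Raet1e, H60b and E030030I06Rik in one cluster, and Ulbp1 on its own 14.6 Mb away. They are 5 of the 21887 protein-coding genes in the gene table. Around them lay 25 of the 70174 accessible regions of the series, 23 in a window of 350 kb over the cluster and 2 within 50 kb of Ulbp1. The genes were selected because of peak calls of the same contrast in the same libraries, so the values below are descriptions. E030030I06Rik is listed in the gene table only under the name of its clone, and its place among ligand genes rests on its selection.

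NKG2D, encoded by Klrk1, is an activating receptor of natural killer cells and of several kinds of T cell, γδ T cells among them. Its ligands are surface proteins related to MHC class I molecules that are scarce on most resting cells and appear on stressed, infected or transformed ones. In the mouse they form the RAE-1 family (Raet1 genes), the H60 family and MULT1 (Ulbp1), and the number of Raet1 and H60 genes in the chromosome 10 cluster is known to differ between mouse strains. The coordinates here are those of the C57BL/6J reference, mm10.

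Accessible chromatin was measured by ATAC-seq, which marks open DNA by where a transposase can insert adapters. The cells were B220+CD93+ splenic B cells, labelled as immature. All 6 libraries came from Tcrd-GDL mice, whose γδ T cells express the diphtheria toxin receptor. The untreated group had 3 libraries. The DTx group had 3 libraries from mice given 2 intraperitoneal doses of diphtheria toxin, each 15 ng per gram and 48 h apart, and analysed on day 8. The toxin removes γδ T cells in this strain, and the untreated mice carried the same allele and are labelled only as untreated, so no vehicle or injection is recorded for them. No age or sex of the mice was used here. The labels number the libraries but do not say that each came from a different mouse, so the spread within a group may be technical.

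The deposited lists held between 36760 and 60811 peaks. Lists of untreated replicate 3 and DTx replicate 1 have the layout of MACS2's narrow mode and the other 4 that of its broad mode, so each group has 1 narrow list. Among the broad lists the DTx ones were the longer (56266 and 60811 peaks against 36760 and 42504), while the narrow pair went the other way (44661 peaks in DTx, 56503 in untreated). A region is a merged stretch of overlapping peaks from any list. A gene end reaches 1 kb to both sides of a gene's first and last base. The percentile of a peak is the share of its own list whose −log10 q is at or below its own. Equal-length lists keep the 36760 peaks of highest −log10 q of each library. The B lineage markers Cd79a, Cd79b, Ms4a1, Pax5, Ebf1 and Cd93 had peaks at a gene end in each of the 6 libraries. No library had one at Cd3e, Trdc, Cd8a, Ncr1, Klrb1c, Klrd1, Lyz2, Adgre1, Mpo, Gata1 or Hbb-bs, which mark T, natural killer, myeloid and erythroid cells. Of other genes on those lists, Cd3d, Prf1 and Klf1 had one in all 6, Cd4 in 2 libraries and Eomes in 1 library of each group, Csf1r in 3 untreated and 1 DTx, Itgam in 2 untreated and 3 DTx, and Cd3g in 1 DTx library.

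Chromatin in front of the genes' annotated starts is shown first, because what the peaks cover there differs between members. The RefSeq promoter table (GRCm38.p6) holds windows for 4 of the 5 members, 2 of them for Raet1e, and has no entry for H60b. The next lines print, 5′ to 3′ on the gene's strand, the 250 bases before the start. Capitals mark matches, on either strand, to GGGCGG (a GC box), to CCAAT (the box of that name), to TATAAA (an element found before some starts), to ATGCAAAT (the octamer of B cell promoters) or to GAGGAAGT (a core bound by PU.1). No match overlapped another.
Ulbp1 (chr10:7473478-7473727, minus strand): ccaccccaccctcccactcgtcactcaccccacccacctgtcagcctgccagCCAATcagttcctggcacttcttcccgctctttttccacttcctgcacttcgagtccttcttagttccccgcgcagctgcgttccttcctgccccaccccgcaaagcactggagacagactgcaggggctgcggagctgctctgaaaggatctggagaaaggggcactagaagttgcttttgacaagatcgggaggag
E030030I06Rik (chr10:22149271-22149520, minus strand): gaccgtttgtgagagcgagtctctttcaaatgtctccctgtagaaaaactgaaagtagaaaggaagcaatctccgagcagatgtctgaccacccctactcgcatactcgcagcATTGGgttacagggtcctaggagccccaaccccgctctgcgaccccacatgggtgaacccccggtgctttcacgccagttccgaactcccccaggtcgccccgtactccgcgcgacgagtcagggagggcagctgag
Raet1e, first start (chr10:22158319-22158568, plus strand): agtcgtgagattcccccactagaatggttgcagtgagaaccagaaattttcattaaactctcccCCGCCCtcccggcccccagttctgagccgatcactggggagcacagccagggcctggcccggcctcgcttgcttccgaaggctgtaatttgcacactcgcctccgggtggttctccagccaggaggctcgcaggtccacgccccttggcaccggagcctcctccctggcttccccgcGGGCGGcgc

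The first Raet1e window held 2 GC boxes, at positions 65 and 242 counted from 1 at its 5′ end, and was 64.4% G or C. The Ulbp1 window held a CCAAT at position 53 and the E030030I06Rik window one at position 114, on the opposite strand. Over all 32851 windows of the table, 32.7% held GGGCGG and 33.8% held CCAAT. A match is only a run of letters, and neither sites nor factor binding were measured.

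A second Raet1e start lies inside the gene's span. Its window is nearly the same sequence as that of Raet1d, so both are printed with capitals at the bases that differ.
Raet1e, second start (chr10:22173247-22173496, plus strand): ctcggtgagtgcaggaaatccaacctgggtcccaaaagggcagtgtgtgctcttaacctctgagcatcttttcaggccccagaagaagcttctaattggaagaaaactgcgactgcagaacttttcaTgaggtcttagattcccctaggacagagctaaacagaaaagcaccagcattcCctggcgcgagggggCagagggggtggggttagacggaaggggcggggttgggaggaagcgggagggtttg
Raet1d (chr10:22361644-22361893, plus strand): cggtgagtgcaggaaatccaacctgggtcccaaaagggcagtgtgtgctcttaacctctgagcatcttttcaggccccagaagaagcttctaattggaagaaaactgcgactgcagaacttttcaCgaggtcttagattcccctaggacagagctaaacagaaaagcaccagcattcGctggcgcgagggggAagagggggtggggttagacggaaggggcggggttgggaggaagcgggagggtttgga

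Aligned without gaps at a shift of 2 bases, the pair shared 245 of 248 bases, an identity of 98.8%. The differences were T128C, C180G and C195A, with positions counted from 1 at the 5′ end of the second Raet1e window and its base given first. Every other pair of windows among the members, H60c and the lncRNA gene C920009B18Rik shared between 28.0% and 36.7% of aligned bases. Both windows held 1 GGGCGG, at position 220 in Raet1e and 218 in Raet1d, and 1 CCAAT on the opposite strand, at 95 and 93.

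Peaks covered the first Raet1e window by 88, 141 and 130 bases in untreated replicates 1, 2 and 3 and by 196, 132 and 141 bases in DTx replicates 1, 2 and 3. The second Raet1e window was under no peak in any library. The Raet1d window was covered by 186 bases in untreated replicate 3 and 195 in DTx replicate 3 and by none in the other 4. Genome-wide, 1402 of the 32851 windows (4.27%) shared a run of at least 100 bases with a window of another gene, and 5.06% of these were under a peak in all 6 libraries, against 35.2% of the 31449 windows that shared none. How reads that align to more than one place were handled is not stated in any label or header used here, and its part in the missing peaks at these near-identical starts was not tested.

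**Figure D1:**
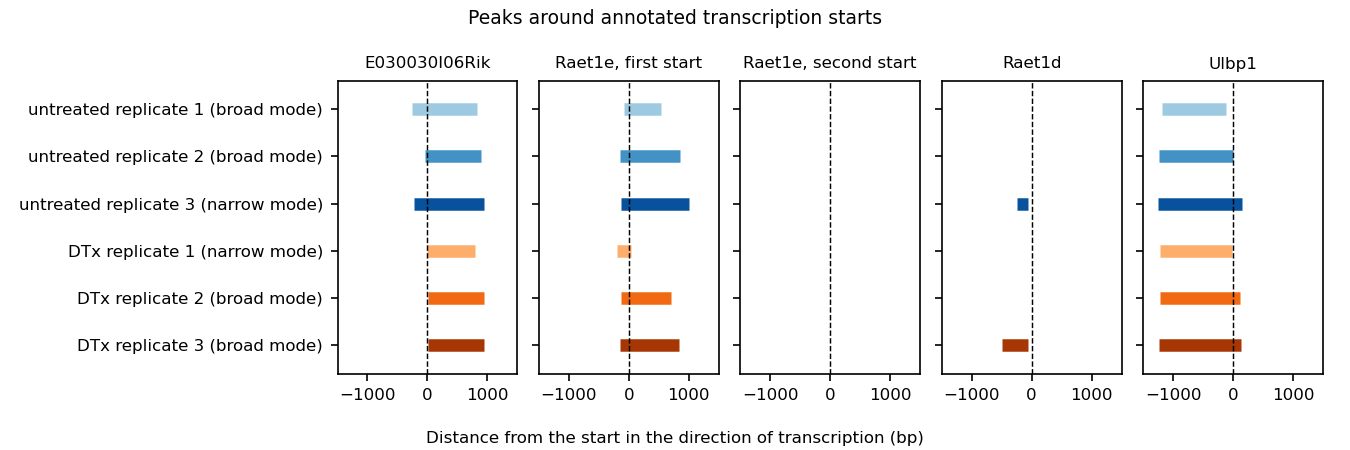
Peaks around the annotated starts, as distance from the start in bp in the direction of transcription, with one row per library and bars spanning the deposited peaks. Raet1e's first start, E030030I06Rik and Ulbp1 have a peak in each of the 6 rows, Raet1d has one in 2 rows, and the second Raet1e start in none.

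At gene ends, 4 of the 5 members were peaked in every library (Ulbp1, E030030I06Rik, Raet1e and H60b), beside 49.2% of all protein-coding genes. The strength of these peaks set the members apart. E030030I06Rik had the strongest one, at chr10:22148325-22149525 over its annotated start, with percentiles of 74.5, 83.2 and 87.6 in the untreated and 75.6, 82.4 and 81.8 in the DTx libraries. Its fold enrichment over local background was 5.29, 6.51 and 13.0 in untreated and 13.0, 5.72 and 5.59 in DTx libraries, the values of 13.0 being those of the narrow lists. Groups overlapped on both measures.

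The peaks of E030030I06Rik lay mostly inside the gene. They reached 250, 38 and 226 bases into the window before the start in the untreated libraries and 13, 0 and 0 bases in the DTx libraries. Each untreated peak thus extended further upstream than each DTx peak, although peak lengths of 815 to 1172 bp overlapped between the groups. The closest values were 38 bases in untreated replicate 2, a broad list, and 13 in DTx replicate 1, a narrow one. The share of all windows that separate in this way is not given here, so no group difference is read from it.

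Raet1e, a RAE-1 family gene, had a weak peak over its first start at chr10:22158373-22159576. Its percentiles were 2.2, 8.28 and 26.7 in untreated and 9.99, 25.1 and 21.7 in DTx libraries, and the groups overlapped. Only untreated replicate 1, whose list is the shortest and was kept whole, still had it among the equal-length lists. The fold enrichment ran from 3.09 to 5.01.

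H60b, a member of the H60 family, had a peak over one end at chr10:22273079-22274259. The percentiles were 26.2, 22.7 and 52.8 in untreated and 24.2, 33.4 and 40.9 in DTx libraries, and fold enrichments ran from 3.17 to 8.64. The equal-length lists kept it in 3 untreated and 2 DTx libraries. H60b lies within the span of Gm26740, a long noncoding RNA gene, so the region belongs to both annotations.

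Raet1d had the least. The single region at its end, chr10:22361399-22361840, was called in untreated replicate 3 and DTx replicate 3 only, at percentiles of 3.35 and 7.58 and fold enrichments of 3.4 and 2.94. No equal-length list held it.

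Inside the cluster genes lay 4 further regions, and 2 of them were called in all 6 libraries. The first is in E030030I06Rik (chr10:22140782-22141355), with percentiles of 45.3, 59.5 and 54.7 in untreated and 29.5, 61.1 and 56.4 in DTx libraries. The second is in H60b (chr10:22282708-22283422), with percentiles of 39.1, 42.9 and 63.9 in untreated and 76.2, 77.0 and 78.7 in DTx libraries. In H60b all 3 DTx values were above all 3 untreated ones. Of the other pair, the region in Raet1e (chr10:22163321-22163960) was missing from untreated replicate 1, and the one in E030030I06Rik (chr10:22142562-22143030) from DTx replicate 1. That last region was the only one of the window called in more untreated than DTx libraries.

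The remaining 15 regions of the window were distal, meaning outside the members and more than 1 kb from their ends, and these held all the group-only calls. Of the 23 window regions, 4 were found by all 3 DTx lists and by no untreated list (17.4%), beside 0.705% of all regions of the genome (495 of 70174). That genome-wide share was 12.4% with the broad lists only, where the DTx lists are the longer, and between 0.918% and 3.95% with 1 library left out, while the window count stayed at 4. None was found by all 3 untreated lists and no DTx list, beside 0.0242% of all regions. Regions called in all 6 libraries were 8 of 23 (34.8%), beside 44.1% of all regions. Since the cluster was selected by these calls, the shares are given side by side and nothing is read from them.

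**Figure D2:**
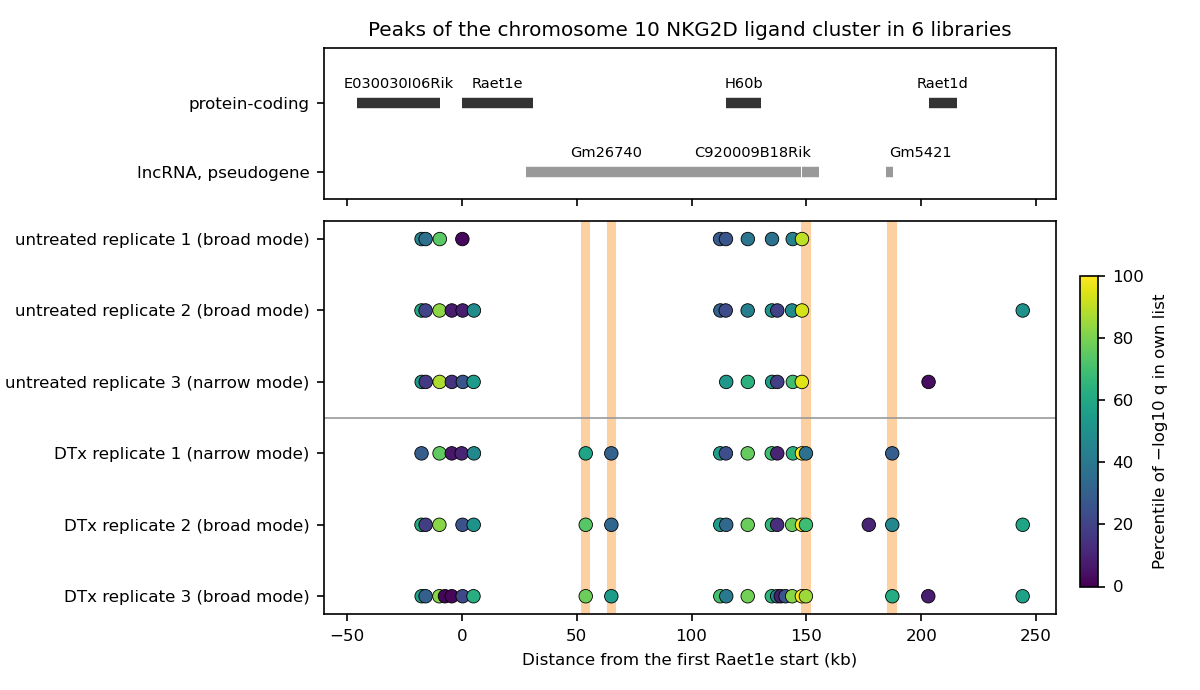
The cluster in kb from the first Raet1e start, with genes above and, below, one row per library in which each point is a deposited peak coloured by its percentile of −log10 q in its own list. Orange bands, drawn wider than the peaks, mark the 4 regions that DTx lists alone have, and the points of the strongest shared region are yellow in all rows.

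Of the 4, the site at chr10:22212373-22212633 stood highest on fold enrichment. It lies 22.7 kb from Raet1e, within Gm26740. DTx replicates 1, 2 and 3 had percentiles of 58.4, 73.8 and 77.4 there, fold enrichments of 14.0, 8.7 and 9.61 and pileups of 43.0, 29.1 and 41.3. No untreated list had a peak of any strength at the site. Of the 495 DTx-only regions of the genome, itself included, 5 had a lowest percentile at least as high. The same count is 56 for the site described next, 28 for the one in C920009B18Rik and 68 for the one at Gm5421.

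The next site, chr10:22223529-22223746, is also within Gm26740, 33.8 kb from Raet1e. Its percentiles in DTx replicates 1, 2 and 3 were 31.4, 32.9 and 54.7 and its fold enrichments 7.94, 4.46 and 5.99. It was the weakest of the 4 on the equal-length lists, which kept it in 2 DTx libraries, without DTx replicate 2. These sites are 10.9 kb apart, and no other region was called between them.

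Another DTx-only site, chr10:22308217-22308488, lies in the long noncoding RNA gene C920009B18Rik, 19.4 kb from H60b. Percentiles were 37.7, 68.4 and 85.4 and pileups 83.0, 80.2 and 162 in DTx replicates 1, 2 and 3. Its fold enrichments of 3.46, 3.15 and 3.93 were the lowest of the 4 sites, with pileup and local background both high there.

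The last site, chr10:22345803-22346099, overlaps the pseudogene Gm5421, 15.8 kb from Raet1d. The percentiles were 29.5, 46.2 and 61.6 and the fold enrichments 7.62, 5.42 and 6.7. No peak was called between this site and Raet1d in 4 of the 6 libraries, and in the other 2 the weak Raet1d end peak was the only one.

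The 12 peaks of the 4 sites were short, 170 to 287 bp with a median of 242 bp, where peaks of regions shared by all libraries in the window had a median of 634 bp. Their median percentile was 56.5 and their median fold enrichment 6.35, beside 19.7 and 4.03 over all 495 DTx-only regions. The equal-length lists of every DTx library held 3 of the 4. These are 3 of the 23 window regions, beside 0.0869% of all regions (61 of 70174). Counted among DTx-only regions, they are 3 of 4 in the window, beside 61 of 495 in the genome.

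Of the other 11 window regions called in some libraries, 8 were called in more DTx than untreated libraries, 1 in more untreated and 2 equally. Over all 38708 regions of this kind, 64.6% leaned to DTx, 15.9% to untreated and 19.5% to neither, so the lean of the window is close to that of the genome. The highest percentile among them, 70.6, was reached 2.21 kb from H60b at chr10:22270860-22271269, called in every library but untreated replicate 3. There untreated replicates 1 and 2 had 28.3 and 30.9 and DTx replicates 1, 2 and 3 had 55.7, 54.4 and 70.6. A site 28.4 kb beyond Raet1d (chr10:22402557-22402856) was called in untreated replicate 2 and DTx replicates 2 and 3, all broad lists, at percentiles of 51.0, 58.5 and 56.7. A total of 4 regions were called in 1 library each, 3 of them in DTx replicate 3, the longest list, and 1 in DTx replicate 2.

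Counted by library, the window held 10, 14 and 13 peaks in untreated replicates 1, 2 and 3 and 16, 18 and 22 in DTx replicates 1, 2 and 3. Per 10000 peaks of the list these were 2.72, 3.29 and 2.3 in untreated and 3.58, 3.2 and 3.62 in DTx libraries, and the groups overlapped. In equal-length lists the counts were 10, 12 and 8 in untreated and 13, 12 and 15 in DTx libraries, with DTx replicate 2 level with untreated replicate 2.

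Around the single genes, peaks within 50 kb of H60b numbered 6, 7 and 6 in untreated and 9, 10 and 11 in DTx libraries. Those of Raet1d numbered 0, 1 and 1 in untreated and 1, 3 and 3 in DTx libraries. Raet1e had 4, 6 and 6 against 7, 7 and 9, and E030030I06Rik 4, 6 and 6 against 5, 5 and 7. DTx counts were above all untreated ones for H60b and Raet1e and overlapped for the other 2 genes. The share of all genes whose counts separate in this way is not given here, so nothing is read from the separation. In equal-length lists the groups overlapped for H60b (6, 7 and 5 against 8, 6 and 9) and met for Raet1e (4, 4 and 3 against 5, 4 and 5). Neighbouring members share peaks within these distances.

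Strength was then compared at the regions called in every library, because all lists rank the same 30954 regions there and the length of a list drops out. For each library the percentile of a region's −log10 q among these 30954 was taken. Of the 8 such regions in the window, 4 ranked higher in each DTx than in each untreated library (3.98% of all shared regions did) and 1 ranked lower in each (4.76% did). All 4 that ranked higher lie between the body of H60b and the start of C920009B18Rik.

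The region in the body of H60b had ranks of 29.6, 26.9 and 36.4 in untreated and 65.9, 58.8 and 58.7 in DTx libraries. Its mean was 31.0 in untreated and 61.1 in DTx. The difference was 30.5 points among the broad and 29.6 among the narrow lists. The gap between the groups was wider than the spread within either. Fold enrichment there was 4.98, 5.56 and 13.6 in untreated and 15.5, 7.2 and 6.56 in DTx libraries. It was higher in DTx within the broad and within the narrow lists.

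A distal region 4.31 kb from H60b (chr10:22293163-22293886) had ranks of 27.7, 35.9 and 24.4 in untreated and 55.0, 40.2 and 36.0 in DTx libraries. Here the lowest DTx value exceeded the highest untreated one by a fraction of a point. The difference was 6.31 points among broad and 30.6 among narrow lists. Fold enrichment was 4.75, 5.95 and 10.1 in untreated and 12.0, 5.17 and 4.44 in DTx libraries, and these overlapped, also among the broad lists alone.

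Next to it, 12.8 kb from H60b, chr10:22301681-22303066 had ranks of 34.9, 32.4 and 44.8 in untreated and 49.4, 58.4 and 65.7 in DTx libraries. The difference was 28.4 points among broad and 4.65 among narrow lists. The ranks of the groups did not overlap, and the size of the difference was not the same in the broad and narrow lists at both of these distal regions. Fold enrichment at the second was 3.16, 3.0 and 5.86 in untreated and 4.62, 3.23 and 3.19 in DTx libraries, and these overlapped. In the narrow lists it was lower in DTx, and in the broad lists slightly higher.

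The strongest region of the cluster, chr10:22306199-22306970, spans one end of Gm26740 and the start of C920009B18Rik, 17.4 kb from H60b. Its ranks were 88.2, 91.2 and 91.4 in untreated and 98.4, 98.8 and 98.4 in DTx libraries, so it stood at or above the 98.4th percentile in each DTx library. Fold enrichment at the peak was 6.14, 7.0 and 14.4 in untreated and 14.4, 7.58 and 6.31 in DTx libraries, and these overlapped. Pileup was 57.3, 107 and 467 in untreated and 462, 267 and 365 in DTx libraries, but depth sets pileup and is unknown here. The peak covered all 250 bases before the C920009B18Rik start in every library, which are printed with the same motifs in capitals.
C920009B18Rik (chr10:22306532-22306781, plus strand): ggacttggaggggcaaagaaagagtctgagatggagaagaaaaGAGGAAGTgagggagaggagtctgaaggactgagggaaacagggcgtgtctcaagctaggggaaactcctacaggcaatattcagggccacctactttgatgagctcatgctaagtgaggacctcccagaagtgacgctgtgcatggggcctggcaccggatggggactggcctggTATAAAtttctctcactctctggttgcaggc

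This window held GAGGAAGT at position 44, found in 2.44% of all windows, and TATAAA at position 220, found in 12.4%. The octamer ATGCAAAT, found in 1.6% of all windows, was in none of the windows printed here. These are descriptions of the letters, and the motifs were chosen with the peaks known.

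Lower ranks in each DTx library were seen at the gene end of E030030I06Rik, with 69.8, 76.9 and 77.4 in untreated and 65.1, 68.3 and 64.6 in DTx libraries. The region in its body had 36.2, 45.6 and 23.7 in untreated and 12.4, 34.3 and 25.5 in DTx libraries, and these overlapped. The gene ends of Raet1e (0.491, 1.85 and 3.19 against 1.95, 4.2 and 2.79) and H60b (16.9, 9.6 and 21.6 against 8.99, 8.16 and 11.8) overlapped too. The end of H60b thus did not rank higher in DTx libraries, while the region in its body did.

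**Figure D3:**
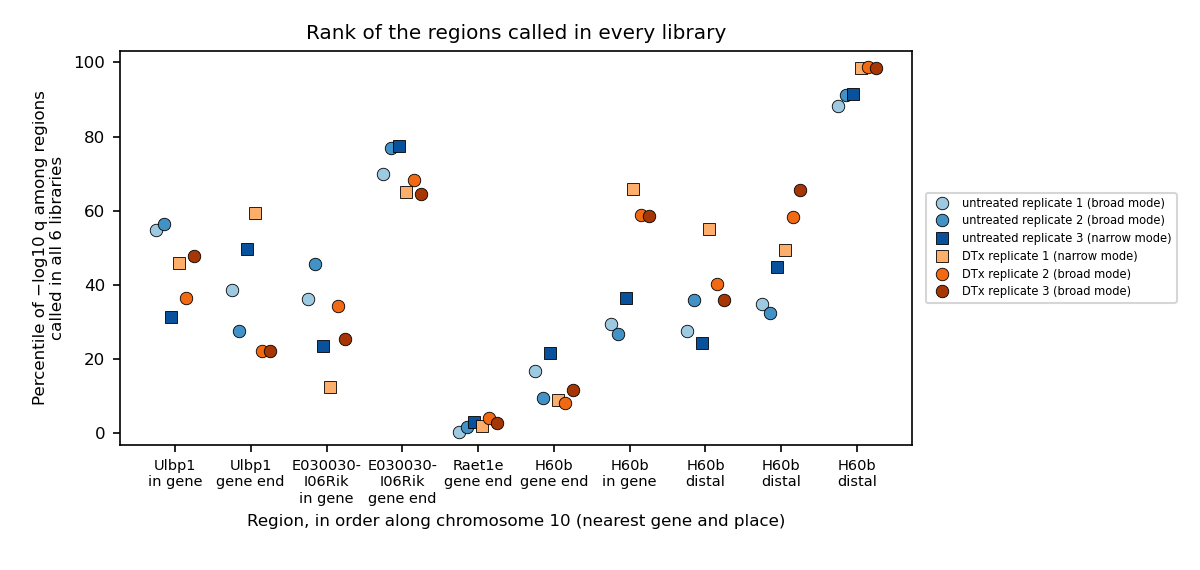
Percentile rank of −log10 q (y axis) among the 30954 regions called in all 6 libraries, for the 10 such regions near the 5 genes in order along the chromosome; each point is 1 library, squares are narrow and circles broad lists, blue untreated and orange DTx. The 4 regions at the right, from the body of H60b on, have every orange point above every blue one.

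Along with these ranks, the local background differed. Fold enrichment compares pileup with a local background, so (pileup + 1) divided by fold enrichment gives an approximate background behind each peak, which includes any constant the peak caller added. No control library is among the samples, so reads of the peak itself and of its neighbours may enter this background. It is expressed as a multiple of the lowest one in the same list. In the body of H60b it was 1.0, 1.0 and 1.38 in untreated and 1.84, 1.68 and 2.09 in DTx libraries. At the start of C920009B18Rik it was 3.73, 5.71 and 7.9 in untreated and 10.2, 10.2 and 13.2 in DTx libraries. At the end of H60b it was 1.26, 1.39 and 1.86 in untreated and 1.99, 2.3 and 2.61 in DTx libraries. None of these groups overlapped.

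Ranked among the shared regions, this background was higher in each DTx than in each untreated library at 5 of the 8 window regions, beside 3.55% of all shared regions. The 5 are the 4 whose own rank was higher and the gene end of H60b. They follow each other along the chromosome, and neighbouring peaks can share a local background, so they are not 5 independent observations. It was lower in each DTx library at 1 of the 8, the gene end of E030030I06Rik, beside 2.79% of all shared regions. There the background ranked at percentiles of 75.0, 73.2 and 79.8 in untreated and 60.9, 72.8 and 70.1 in DTx libraries, while the multiples themselves (2.57, 3.39 and 5.45 against 2.39, 3.54 and 3.58) overlapped. The DTx-only sites near Raet1e were at 1.0, the lowest background of their lists, in each DTx library, and the site at Gm5421 between 1.0 and 1.03. The site in C920009B18Rik was at 7.7, 7.44 and 9.44. The part of this background in the ranks and in the DTx-only calls was not tested.

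**Figure D4:**
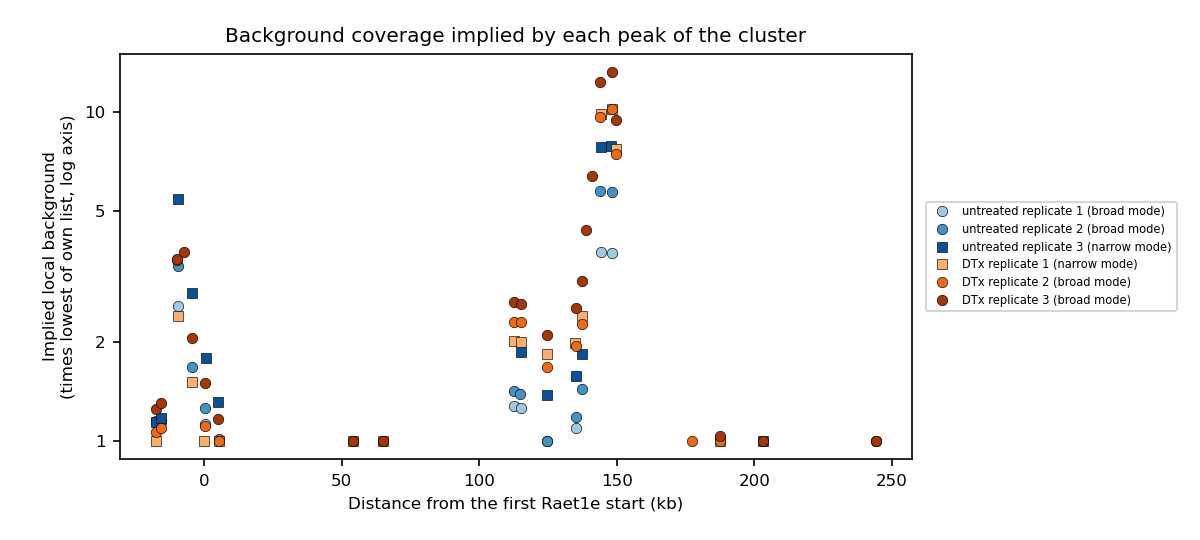
Local background implied by each peak of the window, as a multiple of the lowest in its own list (log axis), against distance in kb from the first Raet1e start; colours and symbols separate the 6 libraries. From H60b to the C920009B18Rik start, orange DTx points lie above blue untreated ones wherever all 6 libraries have a point, and the isolated DTx-only pair nearest to Raet1e sits at 1.

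Ulbp1, which encodes the ligand MULT1, lies outside the cluster. It had 2 peaks within 50 kb in each of the 6 libraries, 2.0 ± 0 (SD, n = 3) in untreated and 2.0 ± 0 (SD, n = 3) in DTx. The difference was 0. With equal counts in every library an exact permutation test can only return p = 1, so it carries no information here.

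One Ulbp1 region, chr10:7473325-7474731, lies upstream of its start and reaches over it, with percentiles of 47.4, 43.6 and 72.2 in untreated and 71.7, 50.9 and 53.3 in DTx libraries. The high values are the narrow lists, at 72.2 and 71.7. The other, chr10:7469968-7470631, is 3010 bp inside the gene and had 61.8, 68.0 and 60.6 in untreated and 61.7, 62.7 and 72.5 in DTx libraries. Ranks among shared regions at the start were 38.6, 27.6 and 49.8 in untreated and 59.5, 22.3 and 22.2 in DTx libraries. Groups overlapped in all of these. The difference of mean ranks changed sign with the mode, at −10.8 points among broad and 9.73 among narrow lists at the start and −13.5 and 14.5 inside the gene.

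The edges of the cluster window were clear of other regions, while 1 region lay just outside the limit for Ulbp1. Below the cluster window the nearest region, chr10:22058407-22059194, was 40.8 kb outside and called in 6 libraries, and above it chr10:22479808-22480087 was 29.8 kb outside and called in 1. The region just outside the limit for Ulbp1, chr10:7392839-7393325, was 51.5 kb from the gene and called in 1 library. On the other side of Ulbp1 the nearest region began at chr10:7578110, 104 kb from the gene, and was called in 3 libraries. The outermost regions inside the window were the one in the body of E030030I06Rik and the one beyond Raet1d, and both Ulbp1 regions lie in the gene or at its end.

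Besides the 4 member genes, the window holds 7 lncRNA genes and 6 pseudogenes in the gene table. Gm26740 overlapped 11 of the 23 regions, more than any member, and C920009B18Rik overlapped 2. The pseudogenes Gm4895 and Gm5421 and the lncRNA genes Gm34607 and Gm10825 overlapped 1 each. Gm2539, Gm51760, Gm34656 and the pseudogenes Gm19791, Gm7678, Gm1972 and Gm16531 overlapped none.

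For the rest of the NKG2D pathway, 25 of the 29 listed genes were in the gene table, and Raet1a, Raet1b, Raet1c and H60a were not analysed here. Of the 25, 21 had peaks at a gene end in each of the 6 libraries and 4 in none, and for none did the number of libraries differ between the groups. The receptor gene Klrk1 was without one throughout. Its adaptors did: Hcst, which encodes DAP10, had percentiles of 14.8 to 55.5 and its neighbour Tyrobp, which encodes DAP12, 71.8 to 90.0. These 2 genes lie next to each other and can share a peak. H60c (chr10:3256202-3268091), another ligand gene of the H60 family, had no peak within 50 kb in any library, and its promoter window was under none.

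Among signalling genes, Syk, Vav1, Grb2, Pik3r1 and Plcg2 had peaks at a gene end throughout and Zap70, the kinase used by T and natural killer cells, in none. All 12 listed factors known to act on ligand genes had one in every library, beside 49.2% of all protein-coding genes. They include the DNA damage kinase gene Atm, with percentiles of 98.3 to 99.6, and the transcription factor gene Sp1, with 99.4 or more, while Myc had 30.1 to 64.0. Of the sheddases that release ligands from the cell surface, Adam10 and Adam17 had one in all 6 libraries and Mmp9 in none. On the same scale the members' ends ran from 2.2 to 26.7 at Raet1e, from 22.7 to 52.8 at H60b, from 43.6 to 72.2 at Ulbp1 and from 74.5 to 87.6 at E030030I06Rik.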

How the data were processed

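Peaks of 6 ATAC-seq libraries of splenic immature B cells, 3 untreated and 3 DTx, were used as deposited. Per the submitters' processing notes, the tools were Trim Galore 0.4.3 (trimming), Bowtie2 2.3.2 (alignment) and MACS2 2.1.1 (peaks), and the build was mm10. No label or header used here states duplicate removal, shifting of read ends or read totals, so depth is unknown and no interval that needs it is given. Each deposited list holds the authors' peaks of 1 library with, per the file headers, length, pileup (a coverage signal) and fold enrichment (a ratio). The deposited −log10 p-value and −log10 q-value columns have damaged headers and were identified by order and values. These are the authors' values, used to describe and rank peaks within a list.

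Regions, gene ends, percentiles, equal-length lists and the implied background (pileup plus 1, over fold enrichment) were computed with pandas 2.3.3, NumPy 2.4.6 and SciPy 1.17.1 under Python 3.11.15, and plotted with Matplotlib 3.10.9. Each list's 2 mitochondrial peaks were dropped. The lowest background of a list was shared, within 0.1%, by 21.8% to 34.7% of its peaks. Merging was tested on simulated peaks. The gene table has neither strand nor exons, so exons, introns and UTRs were not told apart.

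The members, gene lists, motifs and tests were chosen with earlier results of these data known. Named are all members, the genes of the window, the pathway's receptor, adaptors and ligands, genes whose gene-end calls differed between groups, regions at member ends, shared and group-only regions, and up to 5 others of highest percentile. The other pathway genes given with values were named after theirs were seen. Alternatives were equal-length lists, a −log10 q of at least 5, broad lists only, merging across 100 bp, other distances and leaving out each library. Some genes of the marker lists are not reported here.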

Additional observations from a re-analysis of the deposited data

How the results depend on the processing

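The 4 DTx-only regions of the cluster window were 3 with equal-length lists and 4 under each of the other 9 alternatives, with any 1 library left out among them. Regions of the window called in every untreated and no DTx library were 0 under all 10. Regions called in all libraries, 8 as reported, numbered 6 to 10. The genome-wide share of DTx-only regions moved more: 0.705% as reported became 0.367% with equal-length lists, 0.39% with a −log10 q of at least 5 and 12.4% with the broad lists only, where 2 libraries face 2 and the DTx lists are the longer. It ranged from 0.918% to 3.95% with 1 library left out, and was above 1.5 times the reported share without DTx replicate 1 (3.95%), DTx replicate 2 (1.15%), DTx replicate 3 (1.23%) or untreated replicate 3 (3.47%), where fewer libraries have to share a call. Member genes with a gene-end peak in all libraries fell from 4 to 2 with equal-length lists and to 2 with a −log10 q of at least 5, since weak peaks are dropped; Ulbp1 and E030030I06Rik are the 2 left with equal-length lists. The Ulbp1 difference was 0.667 peaks within 100 kb in place of 0. The labels number the libraries in both groups without stating a pairing. With the number as a replicate block the Ulbp1 difference is 0 as well, which equal counts in all 6 libraries fix beforehand, so neither this nor the permutation test says anything about stability. Peak lists hold no reads outside peaks, so a site without a call may still be partly open, and neither the depth nor the size of a difference in accessibility could be measured.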
